A study of Mus musculus with 5 samples.

Results

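The 37 genes described here belong to the interferon response of the mouse. They are the transcription factors of the pathway, the sensors of foreign nucleic acid, the antiviral effectors, the ISG15 conjugation system and the interferon-inducible part of the antigen processing machinery. They were taken as a fixed list of gene symbols, by a rule that uses no measured value, and all 37 were found among the RefSeq genes of the mouse build mm10. Of these, 35 are protein-coding, out of 21774 protein-coding genes in all. Mx1 and Mx2 are annotated as transcribed pseudogenes in the reference, which was made from another mouse strain.

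Interferons are cytokines that alert a tissue to infection. Type I interferon activates a complex containing STAT2 and IRF9 that binds a short repeat of GAAA motifs, the interferon-stimulated response element (ISRE), in the promoters of its target genes, and interferon gamma acts through another short element, the GAS. Macrophages respond strongly to both. Pluripotent and early embryonic cells are known for a weak interferon response.

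DNase I hypersensitive sites (DHSs) mark chromatin that the enzyme can reach, as at active promoters and enhancers. They were mapped in 5 populations sorted from cultures of 1 line of mouse embryonic stem (ES) cells, strain 129, with a green fluorescent protein (GFP) reporter in Brachyury (Bry). In order of differentiation, the first was mesoderm (MES), sorted as Bry.GFP+ without FLK1, and the second was the hemangioblast (HB), in which FLK1 had come up beside Bry.GFP. Hemogenic endothelium (HE) was labelled Bry.GFP+ and sorted as Tie2+, Ckit+ and negative for CD41. Hematopoietic progenitors (HP) were CD41+, and macrophages (MAC) were CD11b+ cells grown from them. None of the labels names an interferon or another immune stimulus for any population. Each population gave 1 list of sites, and the label of the MAC list names 2 replicates together. Whether that list comes from pooled reads, or from the union or the overlap of separate calls, is not given in the sources used here, and its length and the counts in MAC depend on this. There is therefore no replicate error, no comparison between stages could be tested, and every count below describes these 5 lists.

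The lists held between 17734 sites (HP) and 37456 sites (MAC), each site being a start and an end with no score or read count, so that the depth behind a list is unknown. The median width of a site ranged from 600 bp in MAC to 1200 bp in HE. The genes of the sorting markers matched the labels in part: a promoter site was listed for Bry (T) only in MES and HB, for Tie2 (Tek) only in HE, for CD41 (Itga2b) in HE and HP and for CD11b (Itgam) and Csf1r only in MAC, whereas Flk1 (Kdr) had one in all 5 lists and cKit (Kit) in all but MAC. A gene without a listed site is not shown to have closed chromatin.

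The ISRE is the element through which type I interferon acts on such genes, and not all of the 37 hold its letters. The 250 bases before the transcription start site (TSS) are shown for 3 genes with the same kind of element and different listed sites: Ifit1, whose promoter had a DHS in MAC only, Bst2, with one in all 5 stages, and Isg15, with none. They are RefSeq sequences of GRCm38.p6, read 5′ to 3′ on the strand of the gene, and not reads of the 129 cells. Capitals mark the ISRE core, which was searched on both strands as GAAA, any 2 bases, GAAA. Matches may overlap, as in Bst2 and Isg15.
Ifit1, chr19:34640639-34640888, + strand: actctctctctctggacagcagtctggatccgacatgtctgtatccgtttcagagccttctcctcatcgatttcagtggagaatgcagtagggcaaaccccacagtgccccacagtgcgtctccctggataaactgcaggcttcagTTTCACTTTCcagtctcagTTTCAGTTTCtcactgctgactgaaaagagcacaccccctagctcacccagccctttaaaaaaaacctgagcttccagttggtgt
Bst2, chr8:71537473-71537722, - strand: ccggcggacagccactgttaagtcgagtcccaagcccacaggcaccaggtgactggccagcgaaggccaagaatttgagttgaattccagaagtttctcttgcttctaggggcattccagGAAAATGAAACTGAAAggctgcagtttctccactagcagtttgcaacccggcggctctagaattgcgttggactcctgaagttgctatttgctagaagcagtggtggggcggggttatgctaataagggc
Isg15, chr4:156200819-156201068, - strand: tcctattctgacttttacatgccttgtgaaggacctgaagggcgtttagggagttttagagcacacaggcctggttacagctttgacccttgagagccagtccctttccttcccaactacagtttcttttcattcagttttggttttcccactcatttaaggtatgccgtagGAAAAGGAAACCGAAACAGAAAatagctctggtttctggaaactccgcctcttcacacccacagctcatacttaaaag
Counted from the TSS, the 2 matches of Ifit1 begin at -104 and -85 bases, the 2 overlapping matches of Bst2 at -130 and -124 and the 3 overlapping matches of Isg15 at -78, -72 and -66.

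Further 30-base windows of the same build show, again in capitals, the core match nearest to a TSS of the gene. The first 5 genes had a promoter DHS in MAC only, the next 3 in HE only and the last 3 in all 5 stages, and in each of these the window core lay inside the site.
Oas2, chr5:120749905-120749934, - strand: cacacttgagTTTCGATTTCctaggttcct
Oas3, chr5:120777715-120777744, - strand: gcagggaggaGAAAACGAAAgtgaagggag
Rsad2, chr12:26456553-26456582, - strand: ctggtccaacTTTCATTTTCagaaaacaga
Dhx58, chr11:100704256-100704285, - strand: cctccccttgTTTCAGTTTCatttctagag
Zbp1, chr2:173218949-173218978, - strand: aaagtttcatTTTCTCTTTCtttgaaaagc
Irf7, chr7:141266090-141266119, - strand: actgtttaggTTTCATTTTCctgagatgca
Ddx58, chr4:40239804-40239833, - strand: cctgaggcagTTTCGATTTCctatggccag
Parp14, chr16:35871417-35871446, - strand: tccaggaaatGAAAGCGAAAgaagttatct
Stat2, chr10:128270266-128270295, + strand: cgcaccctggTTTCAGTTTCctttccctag
Usp18, chr6:121245837-121245866, + strand: ggatctagggGAAAACGAAAgcttggcggt
Tap1, chr17:34187688-34187717, + strand: cgaggtcggcTTTCGGTTTCttcttcctct
The windows were picked because a site covers the core, so they do not show how often the genes of each group hold one.

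To ask when these promoters became accessible, a gene was counted wherever the list held a site no more than 1 kb from one of its annotated TSSs, called its promoter site. In MAC, 28 of the 37 genes (75.7%) had a promoter site, beside 48.7% of all protein-coding genes. In the early stages the share was below that of all genes, with 14 genes in MES (37.8%, all genes 55.5%) and 15 in HB (40.5%, all genes 57.1%). HE stood between, with 24 genes (64.9%), close to the 59.9% of all genes. In HP 15 genes (40.5%) had a promoter site, beside 48.6% of all genes. Members of the list were thus listed less often than all genes in MES, HB and HP and more often in MAC. All genes had promoter sites about as often in MAC as in HP. The counts are set beside genes of the same promoter class below, and no difference was tested.

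**Figure D1:**
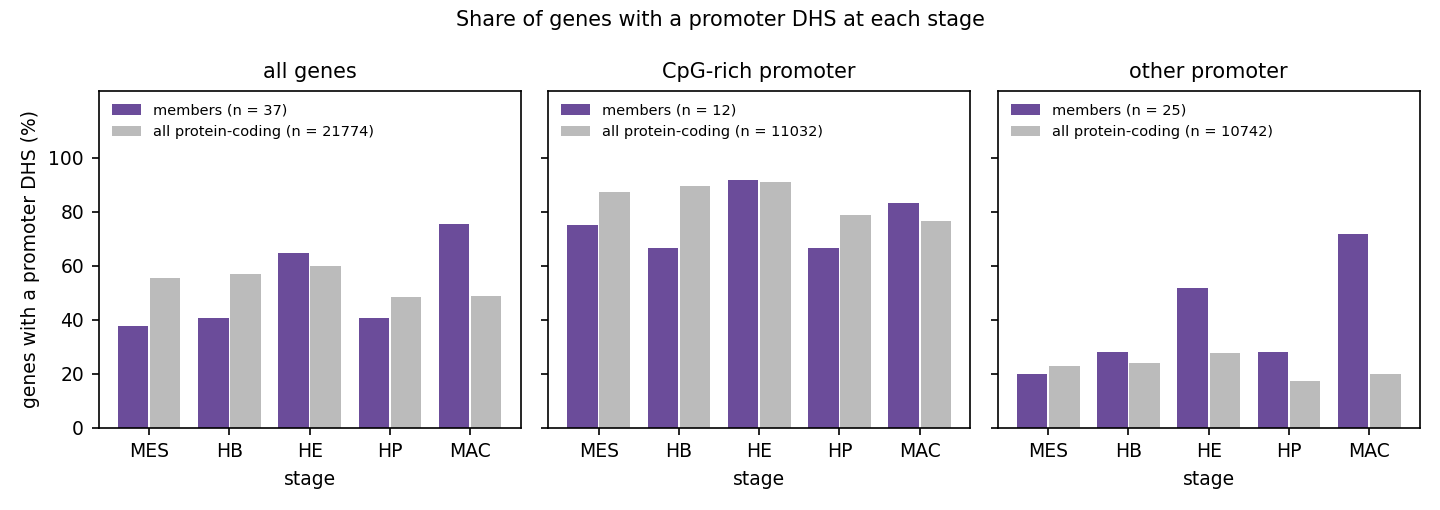
Percent of genes with a promoter DHS (y axis) at each of the 5 stages (x axis) for the interferon response genes and for all protein-coding genes, over all genes (left), over genes with a CpG-rich promoter (middle) and over other genes (right). The bars are single counts with no error, and the widest gap is in MAC among genes without a CpG-rich promoter, with 72% of the interferon response genes and 20% of all such genes.

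In MAC the gap to all genes lay mostly in 1 class of promoter. CpG-rich promoters, which tend to be accessible in most cell types, were those whose 500 bp around the TSS reached 0.5 in GC share and 0.6 in observed over expected CpG. Only 12 of the 37 genes had one, and over the 5 stages in order 9, 8, 11, 8 and 10 of these 12 had a promoter site, beside 87.4, 89.4, 91, 78.9 and 76.6% of all CpG-rich genes. Of the other 25 genes, 5 had a site in MES and 7 in HB (20% and 28%, all such genes 22.8% and 23.9%). The number was 13 in HE (52%, all such genes 27.9%), 7 in HP (28%, all such genes 17.5%) and 18 in MAC (72%, all such genes 20%). In MES and HB these 25 genes were close to all genes of their class, and in HE, HP and MAC they were above them.

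By their pattern over the stages, 11 genes had a promoter site in all 5 lists (all genes 42%), 5 in none (all genes 34.3%) and 21 in 1 to 4 of them. The most frequent pattern in this last group was a site in MAC only, which 7 genes had (18.9%, all genes 1.72%). A site in HE only was listed for 4 genes (all genes 3.03%), and in HE and MAC only for 3 genes (all genes 0.744%). The map of site widths shows all 37 genes by role.

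**Figure D2:**
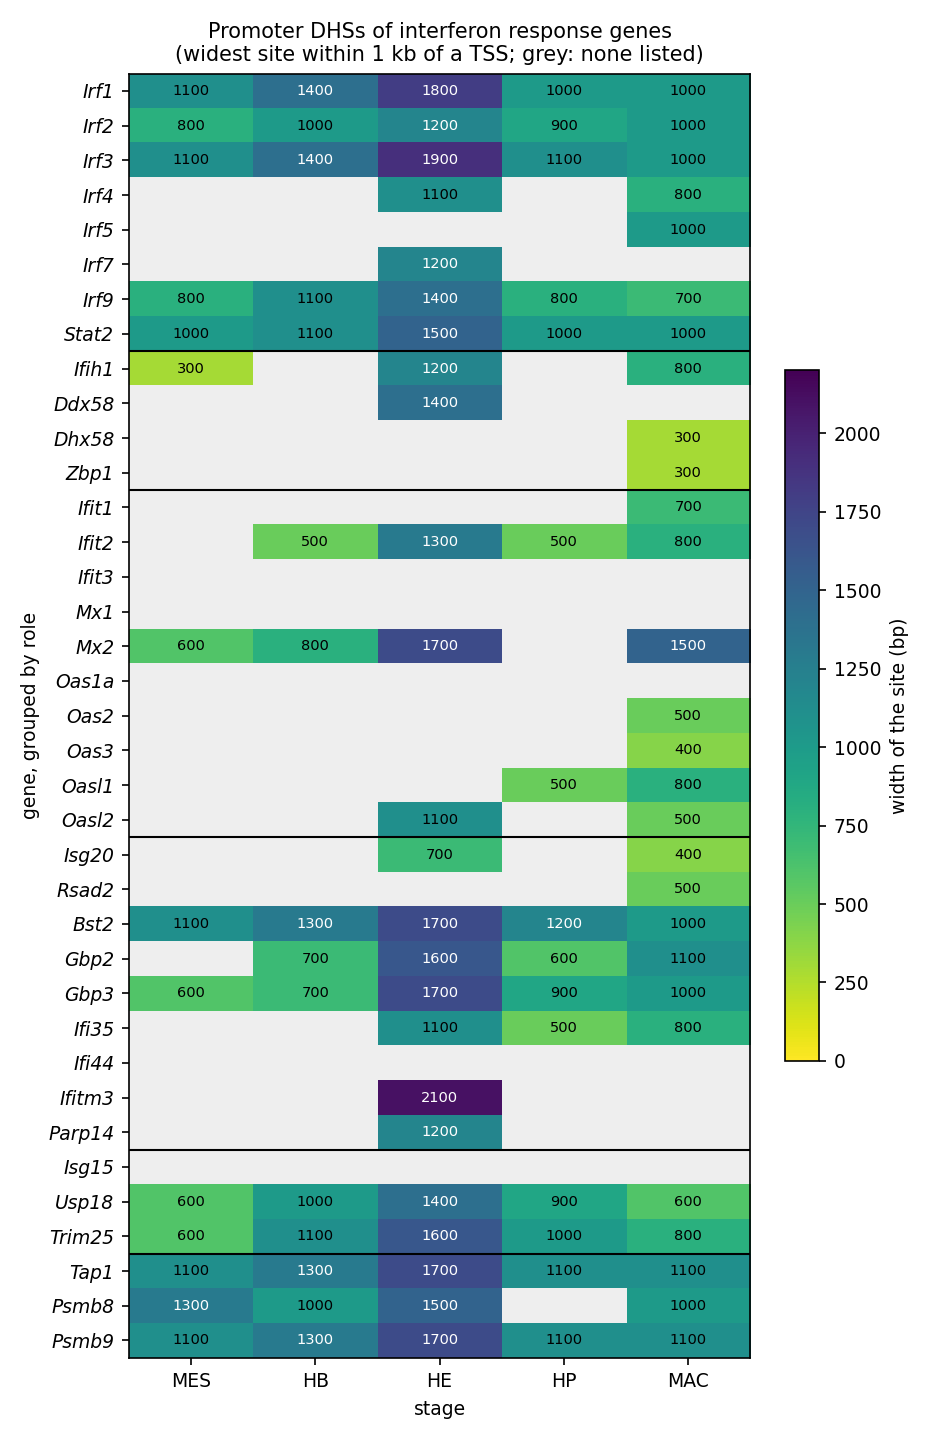
Width in bp (colour and number) of the widest DHS within 1 kb of a TSS for each of the 37 genes (y axis, grouped by role) at each stage (x axis), with grey where no site was listed. At the top 5 of the 8 transcription factors are filled at all 5 stages, and Irf4, Irf5 and Irf7 at 1 or 2. The antigen processing genes at the bottom are filled at 4 or 5 stages. The sensors and the Ifit, Oas and Mx genes are filled in more rows in MAC (3 of 4 and 7 of 10) than at any earlier stage.

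Of the 8 transcription factors, 5 had a promoter site at every stage (62.5%, all genes 42%). Irf1, Irf2, Irf3 and Stat2 among them have CpG-rich promoters, a class in which 71.3% of all genes had one at every stage. Irf1, an activator of interferon and of antigen presentation genes, had sites of 1100, 1400, 1800, 1000 and 1000 bp from MES to MAC. Irf2, its antagonist at many targets, Irf3, which is activated by viral sensing, and Stat2 and Irf9, which are parts of the ISRE-binding complex, likewise had a site at all 5 stages. The widest site of each of these genes was that of HE, the list with the widest sites. The site at Irf3 is also within 1 kb of a TSS of Bcl2l12 at every stage, and so cannot be given to either gene alone.

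The 3 remaining factors had a site at 1 or 2 stages each. Irf4, a regulator of lymphoid and myeloid differentiation, had a site of 1100 bp in HE and of 800 bp in MAC and none in MES, HB and HP. Irf5, which carries Toll-like receptor signals in macrophages, had 1 site of 1000 bp in MAC (chr6:29528650-29529649). It lies in an intron with its middle at -103 bp from an internal TSS, and no stage had a site at the CpG-rich main TSS of Irf5. Irf7, the amplifier of type I interferon production, had a site in HE only (chr7:141265227-141266426, 1200 bp), while the nearest site in MAC lay 2.3 kb away.

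Of the 4 sensors, 1, 0, 2, 0 and 3 had a promoter site from MES to MAC (all genes 55.5, 57.1, 59.9, 48.6 and 48.7%). Ifih1 and Ddx58 have CpG-rich promoters, a class at 87.4, 89.4, 91, 78.9 and 76.6%. Dhx58 and Zbp1 are of the other class, at 22.8, 23.9, 27.9, 17.5 and 20%. Ifih1 encodes MDA5, a receptor of long double-stranded RNA, and its promoter had a site of 300 bp in MES, 1200 bp in HE and 800 bp in MAC. Ddx58, which encodes the RNA receptor RIG-I, had a site of 1400 bp in HE only (chr4:40238908-40240307), and in MAC the nearest site was 29.5 kb away at the promoters of Smim27 and Topors. Dhx58, which encodes the related regulator LGP2, had a promoter site in MAC only (chr11:100704167-100704466, 300 bp). Zbp1, a sensor of Z-form nucleic acid, had one in MAC only as well (chr2:173218925-173219224, 300 bp). These 2 sites were the narrowest promoter sites of the 37 genes in MAC.

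The Ifit, Oas and Mx genes, like the sensors, had few early sites. From MES to MAC, 1, 2, 3, 2 and 7 of these 10 genes had a promoter site. None of the 10 has a CpG-rich promoter, and in MES and HB their counts were close to the 22.8% and 23.9% of all genes of that class. The Ifit proteins bind foreign RNA and block its translation. Ifit1 had a site of 700 bp in MAC only (chr19:34640563-34641262), which also comes within 1 kb of the TSS of Ifit1bl2. Its neighbour Ifit2 had sites of 500, 1300, 500 and 800 bp from HB to MAC, each with its middle no more than 0.1 kb from a TSS. Ifit3, between them, had no promoter site at any stage, and its nearest site was 4.9 kb into the gene in MAC.

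The Oas enzymes make the messenger that activates RNase L. Oas2 (chr5:120749646-120750145, 500 bp) and Oas3 (chr5:120777546-120777945, 400 bp) each had a promoter site in MAC only, and at the other stages their nearest sites were 34.3 to 62.4 kb away. Oas1a, in the same cluster, had none at any stage. Oasl1, an inhibitor of Irf7 translation, had a site of 500 bp in HP and of 800 bp in MAC, each about 0.9 kb upstream of the TSS by its middle. Oasl2 had a site of 1100 bp over its TSS in HE and of 500 bp, 412 bp inside the gene, in MAC. The Mx proteins are antiviral GTPases whose genes are defective in many laboratory strains. Mx2 had sites of 600, 800 and 1700 bp from MES to HE and one of 1500 bp in MAC, and none in HP. Mx1 had none at any stage.

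Among the 9 other effectors, 2, 3, 7, 4 and 6 had a promoter site from MES to MAC (all genes 55.5, 57.1, 59.9, 48.6 and 48.7%). All but Bst2 and Parp14 lack a CpG-rich promoter, a class at 22.8, 23.9, 27.9, 17.5 and 20%. Bst2, which encodes the virion-trapping protein tetherin, and Gbp3, a guanylate-binding protein, had a site at all 5 stages. In Gbp3 the site was 600 bp in MES and 1700 bp in HE. Gbp2, an interferon gamma-induced GTPase, had sites of 700, 1600, 600 and 1100 bp from HB to MAC. The HB site of Gbp2 lay 282 bp downstream of the TSS and was not merged with those of the other 3 stages, although it overlaps the HE site. Ifi35 had sites of 1100, 500 and 800 bp from HE to MAC.

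Rsad2, which encodes the antiviral enzyme viperin, had a promoter site in MAC only (chr12:26456276-26456775, 500 bp). Its neighbour Cmpk2, also an interferon-induced gene, had a promoter site at all stages but HP, and in MES and HB that was the nearest site to Rsad2, at 12.7 kb. Isg20, an exonuclease gene, had a site of 700 bp in HE, 770 bp upstream of the TSS, and a separate one of 400 bp over a TSS in MAC. Parp14, an ADP-ribosyltransferase gene, had a site of 1200 bp in HE only (chr16:35870719-35871918). Ifi44 had none, and its nearest site at any stage was 86.5 kb away.

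Ifitm3, which encodes a membrane protein that blocks viral entry, shows what the 1 kb reach decides. In HE a single site of 2100 bp (chr7:141008627-141010726) covered the small gene to 18 bp from its TSS. In MES, HB, HP and MAC a site lay downstream of the gene at 1186 to 1268 bp from the TSS and was not counted. Isg15 is the other such gene, with a site at 1390 to 2000 bp in every list, next to the TSS of its neighbour Perm1. Dhx58 had an intronic site 1161 to 1965 bp from its TSS in MES, HB and HE. Just inside the reach lay sites of Irf2 in HE (872 bp), Mx2 in HB (835 bp), Irf2 in HP (799 bp) and Isg20 in HE (770 bp).

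The ISG15 system attaches a ubiquitin-like tag to proteins. Isg15, the tag itself, had no promoter site, whereas Usp18, which removes the tag and dampens receptor signalling, and Trim25, a ligase that also activates RIG-I, had one at all 5 stages. From MES to MAC the Usp18 site was 600, 1000, 1400, 900 and 600 bp wide. The Trim25 site was 600, 1100, 1600, 1000 and 800 bp wide.

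The antigen processing genes lie together on chromosome 17. Tap1, a peptide transporter subunit, and Psmb9, an immunoproteasome subunit, are transcribed away from each other from TSSs 226 bp apart and share 1 site at all 5 stages, so that the counts of genes, which include both, hold this site 2 times. From MES to MAC that site was 1100, 1300, 1700, 1100 and 1100 bp wide. Psmb8, another immunoproteasome subunit 10.6 kb from Tap1, had sites of 1300, 1000 and 1500 bp from MES to HE and one of 1000 bp in MAC, and none in HP.

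The neighbouring stages were then compared gene by gene. From MES to HB, 2 genes without a site in MES had one in HB, Gbp2 and Ifit2, and 1 had the reverse, Ifih1. Over all 21774 genes these numbers were 800 and 454. From HB to HE, 9 of the 22 genes without a site in HB had one in HE, beside 13.4% of all such genes, and none of the 15 with a site was without one, close to the 5.21% of all genes. The 9 genes were Ddx58, Ifi35, Ifih1, Ifitm3, Irf4, Irf7, Isg20, Oasl2 and Parp14. From HE to HP, 10 of 24 genes had a site in HE and none in HP (all genes 20.1%), and Oasl1 was the single gene with the reverse. From HP to MAC, 13 of the 22 genes without a site in HP had one in MAC, beside 10.1% of all such genes. These were Dhx58, Ifih1, Ifit1, Irf4, Irf5, Isg20, Mx2, Oas2, Oas3, Oasl2, Psmb8, Rsad2 and Zbp1. None of the 15 genes with a site in HP was without one in MAC, which for so few genes is close to the 10.6% of all genes.

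The length of the lists and the width of their sites moved with these counts. HP has the shortest list, MAC the longest and HE the widest sites, and their part in the counts was not tested. The 7 promoter sites listed in MAC only were 300 to 1000 bp wide with a median of 500 bp, and the median of all genes with this pattern was also 500 bp. In the 11 genes with a site at all stages the MAC sites were 600 to 1100 bp wide with a median of 1000 bp. When sites narrower than the median of their list were left out, Oas2, Oas3, Rsad2, Dhx58 and Zbp1 had no promoter site, and 5 genes had one in MAC only, which were Irf5 and Ifit1 with Irf4, Oasl1 and Ifi35. With each list held to its widest sites, as many as the shortest list has, 20 genes had a promoter site in MAC, beside 38.7% of all genes, and 20 had one in HE, beside 51.7%, so that the number in MAC was no longer above that in HE. A site in MAC only was then listed for 3 genes, namely Irf4, Irf5 and Ifit1.

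The ISRE was then looked for inside the sites. Sequences from 250 bases before to 50 after a TSS were at hand for 30 of the 37 genes, and 14 of these held the ISRE core, beside 3.44% of 32851 promoters. The longer form, in which the core is followed by CT, was found in 8 of the 30 (all promoters 0.271%). The core with its letters in reverse order was found in none (all promoters 3.08%). The GAS, TTCNNNGAA, was in 9 of the 30 (all promoters 8.3%). In Irf1, a textbook interferon gamma target, the GAS (capitals) begins at -90 bases from a TSS and its window lay inside the promoter site of all 5 stages.
Irf1, chr11:53769914-53769942, + strand: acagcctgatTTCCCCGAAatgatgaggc
The composite of an ETS and an IRF motif, GGAA, any 2 bases, GAAA, was in 4 (all promoters 2.72%), and the PU.1 letters GAGGAAGT in none (all promoters 3.2%). The list was assembled from genes known to answer to interferon, so a high share of ISREs is a property of the choice.

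The stage at which an ISRE lay in a DHS was counted next. The genes were chosen with earlier results of these data known, so these counts are not independent of that choice. A match was counted only in a promoter site, which 14, 15, 24, 15 and 28 genes had from MES to MAC. In the central 500 bp of the promoter sites, the core was held by 17 of 29 sites in MAC (all promoter sites 4.73%) and by 11 of 25 in HE (4.05%). It was held by 6 of 14 in MES (3.31%), 6 of 15 in HB (3.29%) and 6 of 16 in HP (3.72%). These 500 bp are a smaller part of the wide HE sites than of those in MAC. Searched over whole sites, 10, 8, 16, 8 and 19 genes had the core in a promoter site from MES to MAC, against 6, 7, 12, 6 and 17. Counted by gene, the core match nearest to a TSS, which 29 of the 37 genes had within 1 kb (all genes 31.3%), lay inside a promoter site in 9, 7, 15, 7 and 18 genes from MES to MAC. The order of MAC and HE turned in 1 alternative, which changes the length of the lists and the width of their sites together. With each list held to its widest sites, as many as HP has, the core lay in the central 500 bp of a promoter site in 9 genes in MAC and 11 in HE, against 17 and 12 with the full lists.

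For 7 of these 29 genes the match lay in a site in MAC alone, namely Ifit1, Isg20, Oas2, Oas3, Rsad2, Dhx58 and Zbp1. For 4 genes it did so in HE alone, which were Irf7, Ddx58, Parp14 and Gbp3. The Gbp3 match lies at -6 bp from a TSS, and the sites of the other 4 stages begin downstream of it, that of MAC just past it. Another core lay in the central 500 bp of the Gbp3 promoter sites in HB, HE, HP and MAC. For 6 genes it lay in a site at all 5 stages, namely Irf2, Stat2, Bst2, Usp18, Tap1 and Psmb9. In 7 genes, Irf9, Ifit3, Isg15, Mx1, Oas1a, Oasl1 and Ifitm3, no stage had a promoter site over this nearest match. Ifit3 and Isg15 thus had an ISRE core at 5 and -62 bp from a TSS with no site over it in any list, and in Ifitm3 the HE site ended just short of the nearest match but covered another core, which begins 20 bases into the gene.

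**Figure D3:**
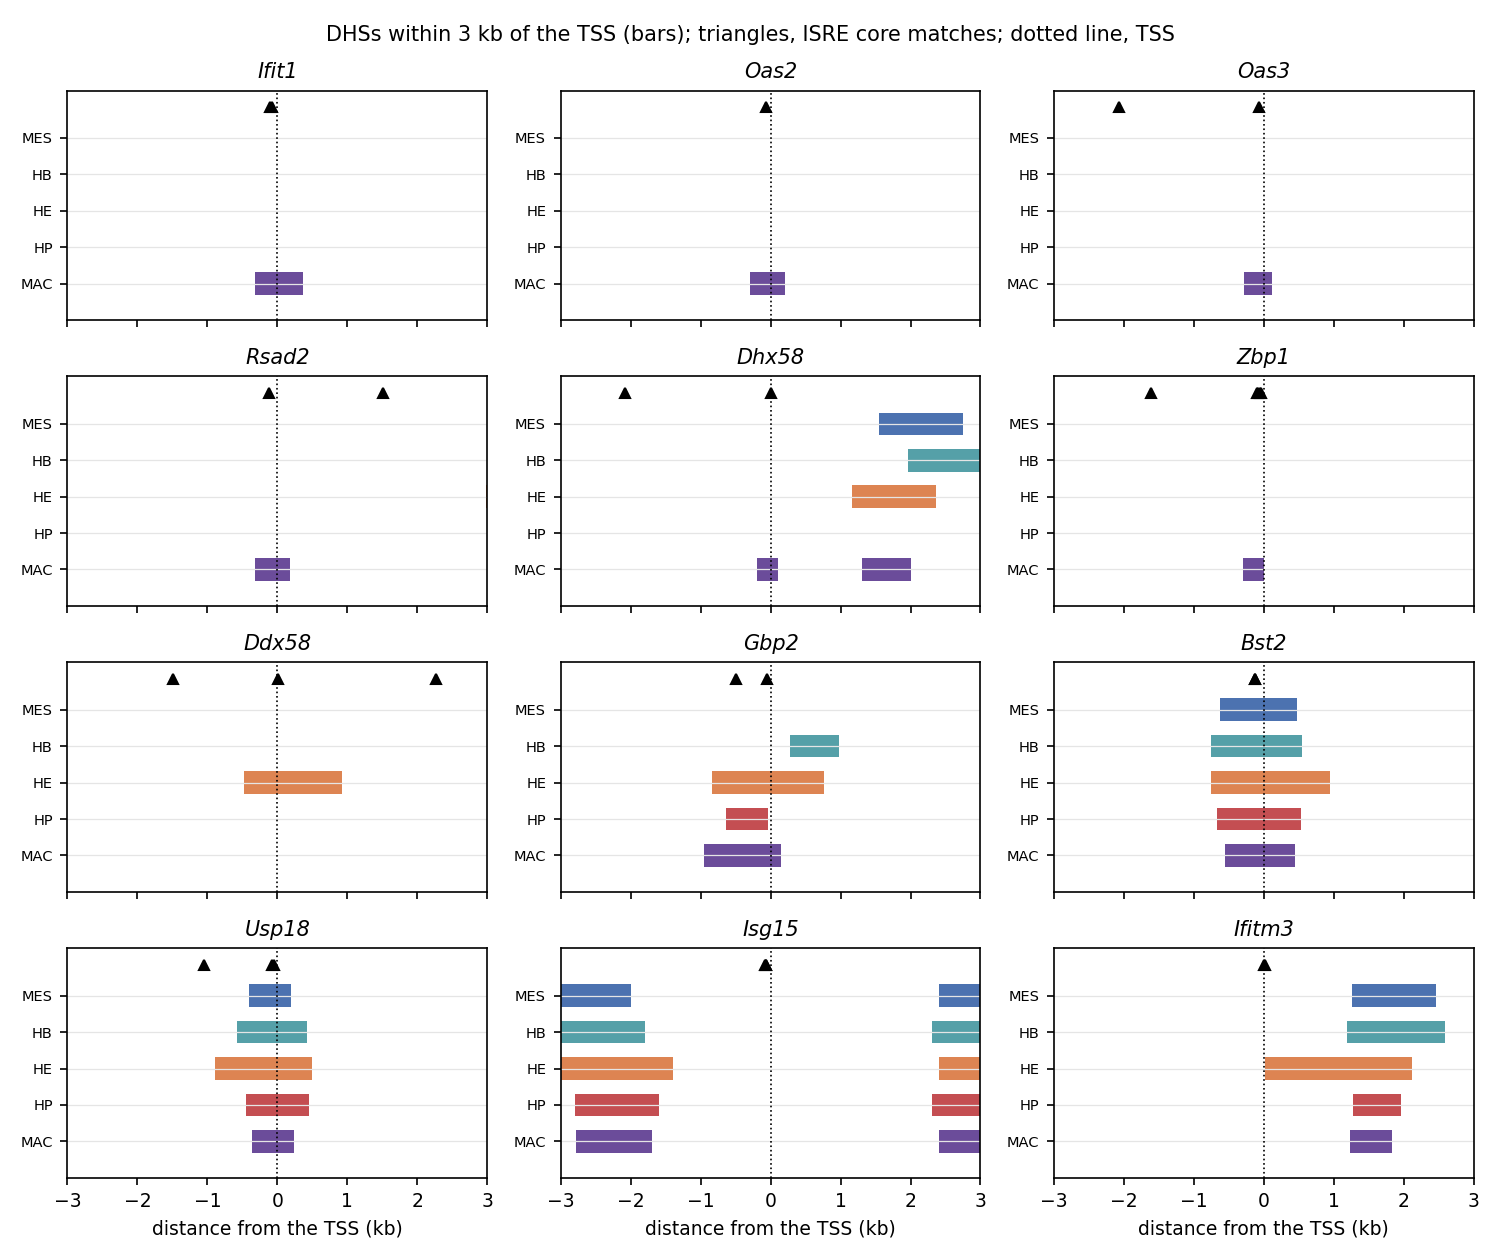
DHSs within 3 kb of the TSS (bars, x axis in kb along the strand of the gene) at the 5 stages (y axis) in 12 of the genes, with triangles for ISRE core matches and a dotted line for the TSS. In Ifit1, Oas2, Oas3, Rsad2, Dhx58 and Zbp1 the only bar over the match next to the TSS is that of MAC, in Bst2 and Usp18 all 5 bars cover it, and in Isg15 bars flank it without reaching it.

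Beyond the promoters, a site was assigned to a gene when the gene had the nearest protein-coding TSS and the site lay inside it or within 100 kb of its TSS. From MES to MAC the 35 protein-coding members had 9, 11, 24, 8 and 52 such sites. At least 1 was held by 6, 6, 11, 7 and 15 of them, beside 26.1, 28.2, 37.3, 21.6 and 42.6% of all genes. The 15 of 35 genes in MAC are 42.9%, close to all genes, and the shares in MES and HB (17.1% both) were below theirs.

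Irf2 held 16 of the 52 sites in MAC and 9 of the 24 in HE. With it the mean per gene in MAC was 1.49, beside 1.11 over all genes, and without it 1.06. Over its 107.7 kb gene and its flanks Irf2 had 1, 2, 9, 2 and 16 such sites from MES to MAC. One region 52.7 kb upstream (chr8:46686725-46687425) was listed at all 5 stages. Irf1 had 3, 4, 3, 1 and 4. A region 6.1 kb upstream of Irf1 was listed in MES, HB, HE and MAC. That 10.9 kb downstream was listed in MES and HB only, and that 24.6 kb downstream in HE, HP and MAC. Sites of MES and HB about 10.0 kb upstream formed 1 region. The HE site with its middle 10.9 kb upstream overlaps these but was kept apart, since only windows of 500 bp at the middle of each site were merged. Trim25 had 0, 1, 4, 1 and 6.

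**Figure D4:**
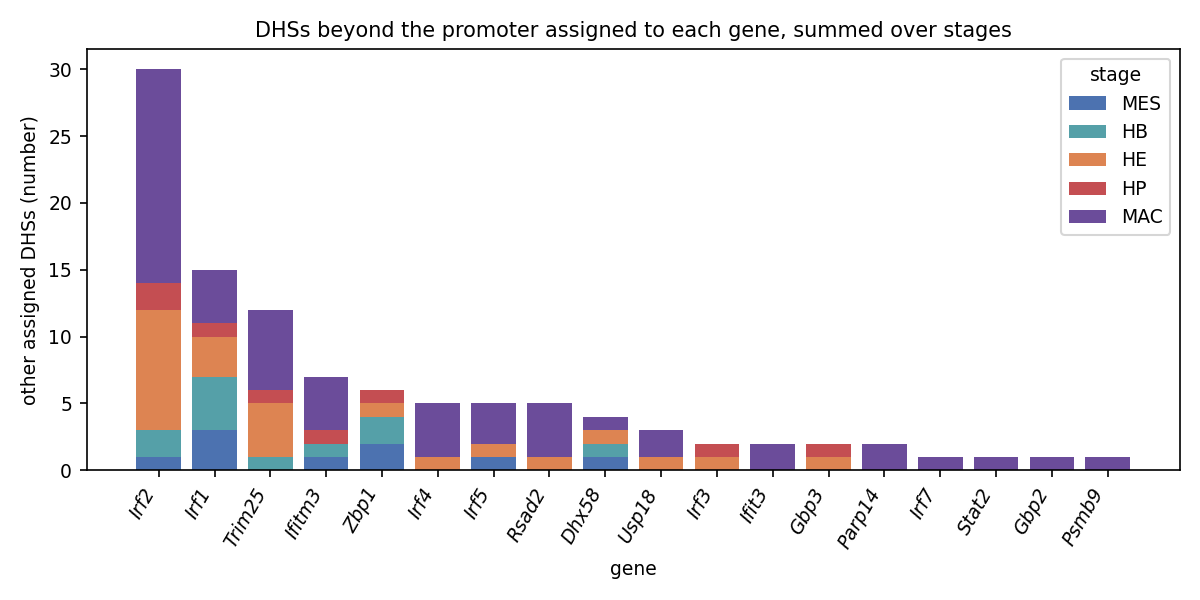
Number of DHSs beyond the promoter assigned to each gene (y axis), summed over the stages and coloured by stage, for the 18 genes with at least 1 (x axis). Irf2 has 30, Irf1 15 and Trim25 12, and MAC makes up the largest part in Irf2 and Trim25.

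Merged across stages by windows of 500 bp at their middle, the sites formed 71 regions. Of these 39 were listed in MAC only (54.9%), beside 38.7% of all 45692 such regions, and 8 in HE only (11.3%, all regions 18%). The genes whose promoter site was confined to MAC differed in this respect. Rsad2 had 4 further sites in MAC, among them 1 at 3.8 kb upstream with an ISRE core, and Irf5 had 3. Ifit1, Oas2 and Oas3 had no further site at any stage. Zbp1 had none in MAC and 1 or 2 at each earlier stage, among them a region 10.9 kb upstream in an intron of Pmepa1 listed at all 4. ISRE cores were searched over 500 bp at the middle of each site, which reaches beyond narrower sites, such as 1 of 200 bp in Ifitm3. In all, 8 of the 52 further sites in MAC held an ISRE core in this window (all MAC sites outside promoters 7.99%), in Irf2, Irf4, Ifit3, Rsad2, Ifitm3 and Trim25. From MES to HP none of the 9, 11, 24 and 8 further sites did, beside 5.08, 4.5, 6.21 and 4.96% of all sites outside promoters. With so few sites these counts of 0 are close to what those shares give and form no contrast with MAC.

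Other genes of the pathway were looked at in the same way. None of the 6 interferon genes examined, Ifnb1, Ifng, Ifne, Ifnk, Ifnl2 and Ifnl3, had a promoter site at any stage. All 6 lack a CpG-rich promoter, a class in which 64.5% of genes had none (all genes 34.3%). Of the 6 receptor chains, 4, 5, 4, 3 and 4 had one in MES, HB, HE, HP and MAC. All 6 have CpG-rich promoters, a class in which 87.4, 89.4, 91, 78.9 and 76.6% of genes had a site at these stages (all genes 55.5, 57.1, 59.9, 48.6 and 48.7%). Ifnar1, Ifnar2 and Ifngr1 had one throughout, Ifngr2 in HB, HE and MAC, Il10rb in MES and HB, and Ifnlr1, the interferon lambda receptor, at no stage. The receptor kinase genes Jak1, Jak2 and Tyk2 and the feedback inhibitor genes Socs1, Socs3 and Ptpn2 had one throughout, and Ptpn6 had one at all stages but HP. All of these but Ptpn6 have CpG-rich promoters, a class in which 71.3% of genes had one throughout. The 7 relay genes between sensor and IRF counted 5, 5, 6, 6 and 6, with Ikbke at none, Traf3 at all stages but HB and Traf6 at all but MES. All of the 7 but Ikbke and Ticam1 have CpG-rich promoters, the class whose shares are given above. Irf8, which directs macrophage differentiation, had one throughout.

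A further 23 interferon-induced genes, which include B2m, Tap2 and Eif2ak2, counted 18, 18, 21, 13 and 21 from MES to MAC, or 78.3, 78.3, 91.3, 56.5 and 91.3% of the group. Their share was above that of all genes at each stage, in MES (55.5%) and HB (57.1%) as well, where the share of the 37 genes was below it. Only Ifi27 had a promoter site in MAC alone, and Igtp had one in HE alone. Xaf1 and Nmi had one in HE and MAC, Cxcl10 in all but MES, Ifitm1 in MES and HB, and Herc6 in MES, HE and MAC. Irgm1, Cmpk2, Tap2 and Nlrc5 had one at all stages but HP. The number in HP, which has the shortest list, was the lowest, and the share of all genes also went from 59.9% in HE to 48.6% in HP. A site in MAC only was listed for 1 of 23 genes, against 7 of the 37 above.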

How the data were processed

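As its methods state, the authors of the study aligned the DNaseI-seq reads to mm10 with Bowtie, kept reads with a single placement, removed duplicates and called sites with DFilter. Bowtie, HOMER and mm10 are named in the submitters' processing notes, and versions were not given in the sources used here. The deposited lists give each site by its first and last base, with widths in multiples of 100 bp and no score, so depth and precision per list are unknown and no statistic of counts was applied. From these lists, promoter sites (within 1 kb of any annotated TSS), other assigned sites (nearest protein-coding TSS, up to 100 kb) and merged regions (windows of 500 bp overlapping by at least 125 bp) were computed in Python 3.11.15 with the RefSeq annotation release 108 of GRCm38.p6, and the scripts were tested on made-up sites. Motifs were exact matches on either strand. Sites were searched over 500 bp at their middle, also where the site is narrower than that. All 37 genes are named, with positions or widths for those with a promoter site at 1 to 4 stages. The rule for the 37 genes uses no measured value, but these genes and the other gene lists were chosen with earlier results of these data known. Alternatives changed the reach, the TSS set, the width of sites, the assignment and the motif. No test was made, since each stage had 1 sample. Some genes of the pathway are not reported here.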

Additional observations from a re-analysis of the deposited data

How the results depend on the processing

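With 1 list per stage, no threshold on depth, no replicate left out and no test could be tried, and only the width of a site could make a list stricter. No paired analysis was possible because each stage had 1 sample and no test was made. The 5 counts of genes with a promoter site per stage, and those with one in MAC only, in HE only, in all 5 stages or in none, moved by less than 1.5 times with a reach of 100 bp or 2 kb, with curated TSSs only and with 500 bp windows, although 6 genes had another pattern at 100 bp, 3 at 2 kb and 1 with curated TSSs. When sites narrower than the median of their list were dropped, MES had 9 genes, all 5 stages 7 and no stage 12. With the widest sites up to the shortest list, MAC only had 3 genes and no stage 12. Other assigned sites at or above the median width numbered 5, 5, 12, 1 and 23 from MES to MAC, with 6 genes in HE and 1 in HP. With the widest sites up to the shortest list they numbered 7 in HB, 12 in HE and 20 in MAC, with 6 genes in HE and 9 in MAC. Assignment to the nearest gene body gave 7 genes in HE, and 4 sites in 4 genes in HP. Genes with an ISRE core in a promoter site numbered 6, 7, 12, 6 and 17 over the stages, and in any assigned site 21 in MAC and the same at the others. Over the whole interval both were 10 in MES. Over the central 200 bp both were 2 in HB, 4 in HE and 3 in HP, and 10 and 12 in MAC. With the widest sites MAC had 9 and 12, and HE 11 in both. The longer ISRE gave 3, 2, 6, 2 and 7, with 11 in MAC for any site. The reversed letters gave 0, 0, 1, 1 and 2, with 2 in HE and 4 in MAC for any site. The cause of these changes was not tested beyond what each rule leaves out.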
